A study of Homo sapiens with 16 samples.

Results

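The comparison described here set Kelly cells given GSK126 for 2 days against Kelly cells given DMSO for 2 days. It used 4 of the 16 RNA sequencing libraries in the study, 2 per arm. The 4 libraries were chosen by the labels on the columns of the deposited count table and by no measured value. Kelly is an established human neuroblastoma cell line with an amplified MYCN gene. One arm received GSK126 at 2 uM and the other DMSO, the solvent, so both arms were the same line, grown for the same time, and differed by label only in the inhibitor. The remaining libraries were Kelly at day 5 and a second MYCN-amplified line, LAN-1, at days 2 and 5, each with GSK126 and DMSO in duplicate. A single cell line is 1 tumour's descendants, and the labels do not say that duplicates were separate cultures, so p-values measure only the spread between these samples.

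EZH2 is the catalytic subunit of Polycomb repressive complex 2 (PRC2), which also needs EED and SUZ12. The complex methylates lysine 27 of histone H3, and the trimethylated form of this mark lies over silent developmental genes and is read by Polycomb repressive complex 1. GSK126 competes with the methyl donor at the catalytic site of EZH2. It lowers the mark without removing the protein, and existing methylation is lost gradually as cells divide and histones are replaced. Neuroblastoma cells of the adrenergic kind carry transcription factors of the sympathetic lineage, and a mesenchymal kind with matrix and cytoskeletal genes is known beside it. Day 2 is the earlier of the time points studied.

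At day 2, 20 genes were higher and 1 was lower with GSK126 at an adjusted p under 0.05 (edgeR's quasi-likelihood test with Benjamini-Hochberg adjustment). That was 0.177% of the 11863 genes tested, and the 20 higher genes alone were 0.169%. At an unadjusted p under 0.05 there were 887 genes. A group of 6 genes of the extracellular matrix stood among the calls, led by COL1A1 and AGRN. They were joined by the X-linked gene ARMCX2, the antigen-presenting molecule HLA-C, the genes KIF21B, TNIK, AUTS2, OLFM1 and LRFN1, and the transcriptional regulators SOX9, SIX3 and NOTCH2. The single lower gene was CEP44, which encodes a centrosomal protein. COL1A1 and ARMCX2 were the only calls that held whichever of the 4 libraries was left out. Because RNA was measured in bulk, a change in RNA per cell and a change in the share of cells that carry a gene cannot be told apart.

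**Figure D1:**
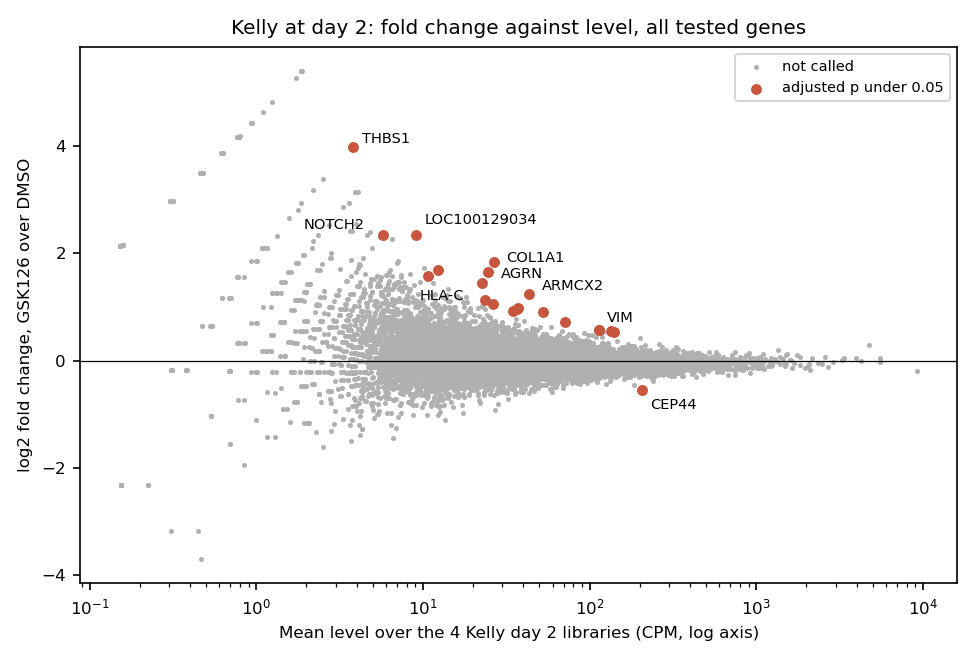
Log2 fold change of GSK126 over DMSO in Kelly at day 2 (y axis) against the mean level of each gene over the 4 libraries in counts per 1e6 (CPM, log x axis). Grey points are the tested genes that were not called and red points the 21 genes with an adjusted p under 0.05. All but CEP44 lie above 0, and the called genes of lower level have larger fold changes.

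The 4 libraries held 1102922 and 1638507 counts with DMSO and 1615740 and 1542009 with GSK126, within a series range of 912095 to 1666190. The first DMSO library stood apart from the other Kelly libraries along gene GC content. Its log2 ratio to the mean of the other 7 Kelly libraries correlated with GC at r = -0.247 across 11695 genes, which are not independent replicates. The other 3 day 2 libraries had r of 0.122, 0.205 and 0.0828. The DMSO duplicates differed from each other by 1.74 times the counting variance and the GSK126 duplicates by 1.10 times. The day 2 fold changes correlated with GC at r = 0.131, which became 0.0260 without the first DMSO library, 0.224 without the second, 0.0781 without the first GSK126 library and 0.143 without the second. Of the 20 higher genes, 19 had a GC value, with a median of 56.1% against 47.6% over all tested genes. The first DMSO library was below the second in 16 of the 20, against 51.1% of all tested genes. The part of library composition in the calls was not tested, so the leading results are also given without that library.

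The labelled cell type was checked against its defining genes. DBH, the enzyme that makes noradrenaline, stood at 616 and 784 CPM with DMSO and 652 and 639 CPM with GSK126. All 8 markers of adrenergic neuroblastoma were expressed in every library. Of the 10 epithelial markers, 4 were at 0 in all 4 libraries, and so were 8 of the 13 haematopoietic, 4 of the 10 endothelial, 4 of the 12 Schwann cell and 4 of the 12 fibroblast markers. Summed levels of the haematopoietic markers were 2.72 and 5.49 CPM with DMSO and 6.81 and 3.89 with GSK126. Those of the endothelial markers were 9.07 and 7.32 against 13.0 and 9.73 CPM. Schwann cell and glial markers summed to more, at 44.4 and 67.7 CPM with DMSO and 62.5 and 73.9 with GSK126. Fibroblast markers, a list that holds COL1A1 itself, summed to 99.7 and 128 CPM with DMSO and 163 and 170 with GSK126.

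Promoter sequences are shown for 3 called genes that differ in CpG content, because PRC2 is known in mammals for its presence at CpG-rich promoters. They are ARMCX2, which kept its call without any 1 library, COL6A2, 1 of the 3 called collagen genes of chromosome 21, and CEP44, the lower gene. Each covers 250 bases before to 50 after the annotated start, 5′ to 3′ on the gene's strand, from RefSeq on GRCh38.p14, with CG dinucleotides in capitals. ARMCX2 lies at chrX:101659801-101660100 on the minus strand, COL6A2 at chr21:46097862-46098161 on the plus strand and CEP44 at chr4:174283661-174283960 on the plus strand.
ARMCX2: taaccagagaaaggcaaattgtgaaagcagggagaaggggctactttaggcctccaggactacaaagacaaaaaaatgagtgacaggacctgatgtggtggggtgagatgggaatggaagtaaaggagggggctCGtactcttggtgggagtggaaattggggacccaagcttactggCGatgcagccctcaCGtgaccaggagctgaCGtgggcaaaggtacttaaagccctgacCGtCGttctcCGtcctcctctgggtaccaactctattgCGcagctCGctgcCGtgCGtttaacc
COL6A2: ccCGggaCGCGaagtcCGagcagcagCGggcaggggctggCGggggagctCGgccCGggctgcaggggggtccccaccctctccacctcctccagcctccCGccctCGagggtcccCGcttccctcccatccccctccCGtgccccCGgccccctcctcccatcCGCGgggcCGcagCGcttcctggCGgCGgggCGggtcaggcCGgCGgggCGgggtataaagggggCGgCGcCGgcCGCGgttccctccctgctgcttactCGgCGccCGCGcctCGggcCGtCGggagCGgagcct
CEP44: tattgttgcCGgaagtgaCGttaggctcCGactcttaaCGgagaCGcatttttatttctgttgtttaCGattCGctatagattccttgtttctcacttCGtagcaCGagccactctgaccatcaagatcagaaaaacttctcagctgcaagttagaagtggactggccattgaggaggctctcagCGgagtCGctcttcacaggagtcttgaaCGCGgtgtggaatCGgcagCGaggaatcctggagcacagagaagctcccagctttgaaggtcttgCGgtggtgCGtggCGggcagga

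The ARMCX2 window held 11 CG dinucleotides, the COL6A2 window 36 and the CEP44 window 18. Windows were present for 14 of the 20 higher genes and 9690 of the tested genes. They were missing for COL1A1, AGRN, SIX3, KIF21B, SOX9 and COL6A1, so the values below do not cover these genes. The higher genes with a window had a median of 31 CG dinucleotides and an observed-to-expected CpG ratio of 0.784, and the tested genes 27 and 0.850. A ratio over 0.6 with GC over 50%, as in a CpG island, was found in 9 of the 14 windows (64.3%) and in 82.6% of the windows of tested genes. The E-box letters CACGTG, the core bound by MYC proteins and the same on both strands, occurred in 1 of the 14 (7.14%), that of ARMCX2, and in 10.6% of all. These are descriptions of letters in a window and say nothing of binding.

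Genes of the extracellular matrix gave several of the calls. Of the 29 tested genes on the list of collagens and other matrix genes, 6 were called, all higher, beside 0.177% of all tested genes. The list's median log2 fold change was 0.29, against 0.005 over all tested genes, and 0.30 without the first DMSO library. In 16 members both GSK126 libraries lay above both DMSO libraries and in 2 both lay below, while over all tested genes 19.4% lay above and 17.3% below. The lists used here and below were chosen with earlier results of these data known, so their counts and medians are descriptions only.

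COL1A1 encodes the main chain of type I collagen, the principal fibrillar collagen of connective tissue (chr17:48261462-48278993, GRCh37). It read 9.88 and 12.98 CPM with DMSO and 45.9 and 38.3 CPM with GSK126, so each treated library was at a level well above both controls. Its log2 fold change was 1.84 ± 0.27 (SE, n = 2 per group, adjusted p = 4.44e-06). The adjusted p was 0.00372 without the first DMSO library. AGRN encodes agrin, a heparan sulfate proteoglycan of basement membranes that organises the neuromuscular junction (chr1:955500-991498). It stood at 8.09 and 14.8 CPM with DMSO and 41.02 and 35.1 CPM with GSK126 (log2 fold change 1.65 ± 0.27, adjusted p = 6.81e-05). The groups were again separate, but without the first DMSO library the adjusted p was 0.0874.

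COL6A1 and COL6A2 encode chains that assemble into the same type VI collagen microfibrils, and they lie on chromosome 21 at chr21:47401684-47424964 and chr21:47518026-47552762. COL6A2 measured 19.8 and 29.1 CPM with DMSO and 52.7 and 46.6 CPM with GSK126 (log2 fold change 0.98 ± 0.22, adjusted p = 0.0281). COL6A1 measured 89.8 and 135 CPM with DMSO and 153 and 181 CPM with GSK126 (log2 fold change 0.53 ± 0.13, adjusted p = 0.0483). Its duplicates were spread widely, and the lower GSK126 library was only a little above the higher DMSO library. COL18A1, on the same chromosome at chr21:46825080-46933634, encodes the basement membrane collagen whose end fragment is endostatin. It read 25.2 and 22.9 CPM with DMSO and 47.8 and 42.8 CPM with GSK126 (log2 fold change 0.92 ± 0.23, adjusted p = 0.0483). Both COL6A1 and COL18A1 lost the call with an offset for gene GC content (adjusted p = 0.051 and 0.061). For COL6A1 the log2 fold change was 0.31 without the first DMSO library (adjusted p = 0.756). COL6A1 and COL18A1 were outside the rule for named genes and were added after their values were seen. COL6A3, the partner chain encoded on another chromosome and added in the same way, was not called and read 20.7 and 25.3 CPM with DMSO and 17.8 and 14.04 CPM with GSK126 (adjusted p = 0.68). Chromosome 21 held 3 of the 21 called genes and 105 tested genes.

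THBS1 encodes thrombospondin 1, a secreted matrix glycoprotein that binds cells and activates TGF-beta (chr15:39873280-39891667). It had 1 read in the DMSO libraries together and 23 in the GSK126 libraries, with an adjusted p of 0.0409. Per raw library total, these reads gave a ratio of 19.97 with an exact 95% counting interval of 3.24 to 823. The levels were 0.898 and 0 CPM against 6.12 and 8.30 CPM, so the call rests on few reads. LTBP4, a matrix protein that stores latent TGF-beta, was on no list and rose from 21.6 and 27.8 CPM to 50.2 and 47.9 CPM (log2 fold change 0.96 ± 0.22, adjusted p = 0.0281). Fibronectin, encoded by FN1 and added after its values were seen, did not pass the test at 125 and 151 CPM with DMSO and 169.6 and 154 CPM with GSK126 (adjusted p = 0.733). Of these 7 called matrix-related genes, COL1A1 alone kept an adjusted p under 0.05 without the first DMSO library. All 7 kept a positive fold change there.

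**Figure D2:**
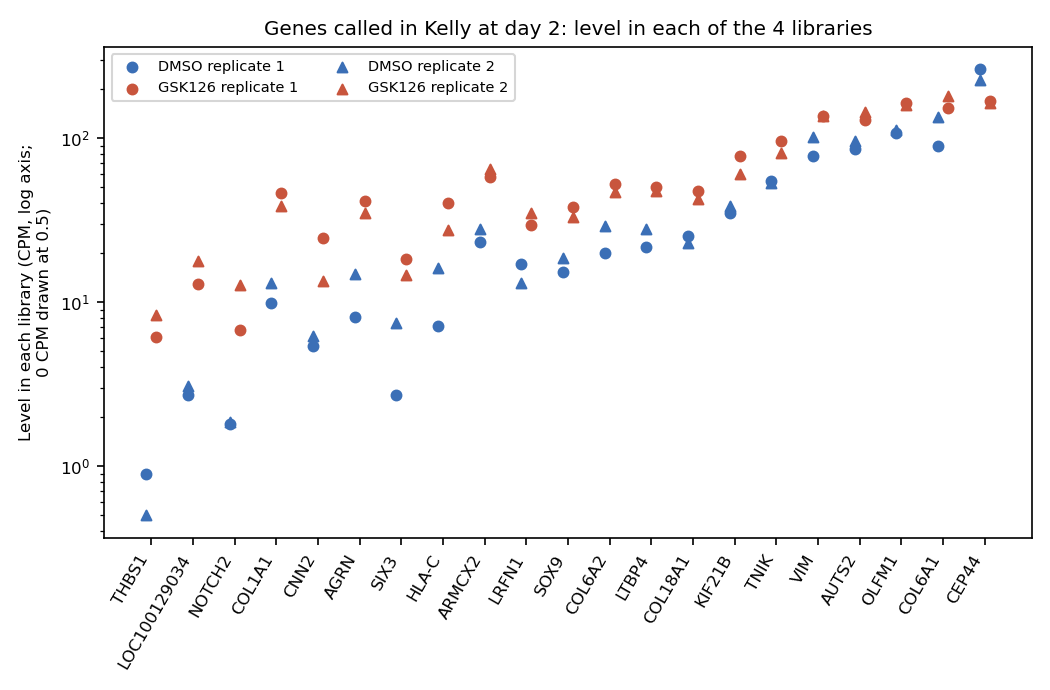
Level of each of the 21 called genes (x axis) in each Kelly day 2 library in CPM (log y axis), with DMSO in blue, GSK126 in red, circles for replicate 1 and triangles for replicate 2. For every gene the red and blue points are separate, with CEP44 the one gene whose DMSO points are higher; the THBS1 library with 0 reads is drawn near the bottom of the axis.

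The mesenchymal, cytoskeletal and fibroblast lists shared some of these genes. Of 18 tested mesenchymal identity genes 3 were called, all higher, beside 0.177% of all tested genes: VIM, COL1A1 and NOTCH2. That list's median was 0.21, with 12 of 18 estimates positive, and 0.14 without the first DMSO library. VIM encodes vimentin, the intermediate filament of mesenchymal cells, and rose from 78.2 and 102 CPM to 137 and 137 CPM (1.49-fold, log2 fold change 0.57 ± 0.13, adjusted p = 0.0319). The GSK126 duplicates were alike while the DMSO duplicates were not. CNN2, an actin-binding calponin and the only call among 22 tested actin and contractile genes (0.177% over all tested genes), read 5.39 and 6.18 CPM with DMSO and 24.5 and 13.4 CPM with GSK126 (log2 fold change 1.69 ± 0.40, adjusted p = 0.0409). The actin list as a whole had a median of 0.009. Of 12 fibroblast markers 6 passed the filter on low counts, which keeps a gene that is high in any group. These 6 had positive estimates, with a median of 1.05 (1.13 without the first DMSO library), and COL1A1 was the 1 that passed the test, against 0.177% of all tested genes. The part of a change in cell composition was not tested.

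HLA-C was the called member of the 10 tested genes for HLA class I and peptide loading, beside 0.177% of all tested genes (chr6:31236526-31239907). HLA class I molecules display peptides to T cells and are low in many neuroblastomas. HLA-C read 7.19 and 16.1 CPM with DMSO and 40.4 and 27.4 CPM with GSK126 (log2 fold change 1.45 ± 0.28, adjusted p = 0.00358). The lower treated library was above the higher control, though both pairs of duplicates were wide. Without the first DMSO library the adjusted p was 0.309. Of the 10 members 9 had a positive estimate, the median was 0.38, and in 6 of them the treated libraries lay above the controls, beside 19.4% of all tested genes. Over all tested genes the libraries were separate in 36.7%, counting both directions. HLA-B, added after its values were seen, measured 3.59 and 3.09 CPM with DMSO and 8.57 and 9.57 CPM with GSK126 (log2 fold change 1.43 ± 0.54, adjusted p = 0.449). HLA-B and HLA-C are close copies of each other, and reads could have been split or lost between them by the counting, so values of single HLA genes are uncertain. No gene passed the test among the 8 tested interferon-stimulated genes and sensors, whose median was 0.09.

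Among the called developmental regulators, SOX9 is a transcription factor of neural crest and cartilage and a familiar PRC2 target (chr17:70117161-70122557). It rose from 15.3 and 18.5 CPM to 37.96 and 33.2 CPM (2.07-fold, log2 fold change 1.05 ± 0.25, adjusted p = 0.0435). It was the only call among 24 tested developmental transcription factors classically bound by PRC2, whose median was 0.14 with 16 positive estimates. This and the other shares of called members stand beside 0.177% over all tested genes. SIX3, a homeobox factor of forebrain and eye, read 2.70 and 7.42 CPM with DMSO and 18.4 and 14.7 CPM with GSK126 (log2 fold change 1.58 ± 0.39, adjusted p = 0.0491). Its DMSO duplicates lay far apart, at few reads. NOTCH2, a cell surface receptor whose cleaved tail acts in the nucleus (chr1:120454176-120643366), had 5 reads in the DMSO libraries together and 31 in the GSK126 libraries. These were 1.80 and 1.85 CPM against 6.73 and 12.8 CPM (log2 fold change 2.35 ± 0.57, adjusted p = 0.0483). NOTCH2 has near copies, the NOTCH2NL genes, with which reads could be shared, so its value is uncertain. It was the only call among 19 tested genes for Notch receptors, ligands and targets. No HOX gene was called: 11 of 33 passed the filter on low counts, with a median of 0.09.

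Among 43 tested genes on the list for the neuronal cytoskeleton, adhesion and synapse none was called, beside 0.177% of all tested genes. The list's median was -0.004. The next 5 called genes were on no such list and stand together only for roles known in neurons. KIF21B, a kinesin motor of dendrites and axons, rose from 35.04 and 38.3 CPM to 77.8 and 60.6 CPM (log2 fold change 0.91 ± 0.19, adjusted p = 0.00862). TNIK, a kinase of synapses and Wnt signalling, read 54.8 and 53.2 CPM with DMSO and 95.5 and 81.04 CPM with GSK126 (log2 fold change 0.71 ± 0.16, adjusted p = 0.0319). Both genes had DMSO duplicates close together and treated duplicates somewhat wider. AUTS2, a nuclear regulator of neurodevelopment that is itself found in a form of Polycomb repressive complex 1, measured 85.4 and 96.5 CPM with DMSO and 129 and 144 CPM with GSK126 (log2 fold change 0.57 ± 0.13, adjusted p = 0.0319). OLFM1, a secreted glycoprotein of neurons, measured 107 and 112 CPM with DMSO and 163 and 158 CPM with GSK126 (log2 fold change 0.55 ± 0.13, adjusted p = 0.0409). These were changes of about the smallest size called, 0.53 on the log2 scale, in genes with tight duplicates. LRFN1, a synaptic adhesion molecule, stood at 17.1 and 12.98 CPM with DMSO and 29.4 and 35.1 CPM with GSK126 (log2 fold change 1.13 ± 0.27, adjusted p = 0.0451). Its call was lost with the offset for gene GC content (adjusted p = 0.0514).

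ARMCX2, LOC100129034 and CEP44 belonged to none of these groups. ARMCX2 is an armadillo repeat gene of the X chromosome (chrX:100910267-100914835). It stood at 23.4 and 27.8 CPM with DMSO and 58.2 and 64.4 CPM with GSK126, with both pairs of duplicates close (log2 fold change 1.24 ± 0.20, adjusted p = 6.81e-05). Without the first DMSO library its adjusted p was 0.0297. LOC100129034, which matched no entry in the GRCh37 annotation, read 2.70 and 3.09 CPM with DMSO and 12.9 and 17.9 CPM with GSK126 (log2 fold change 2.35 ± 0.49, adjusted p = 0.00862). CEP44, at chr4:175204881-175254531, fell from 262 and 227 CPM to 168 and 164 CPM (log2 fold change -0.55 ± 0.11, adjusted p = 0.00862). The treated duplicates were close and lay below both controls, and without the first DMSO library the adjusted p was 0.309.

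The number of calls changed when single libraries were left out. Each such fit left 1 library in 1 arm, so a lost call alone does not show that a gene rested on the library removed. Without the first DMSO library the log2 fold change went from 0.71 to 0.73 for TNIK and from 2.35 to 2.27 for LOC100129034. It went from 1.45 to 1.08 for HLA-C and from 1.58 to 1.15 for SIX3. Without the first DMSO library there were 2 calls, COL1A1 and ARMCX2, both among the 21. Without the second DMSO library there were 11, of which 8 were among the 21. There were 5 without the first GSK126 library and 6 without the second, all among the 21. COL1A1 and ARMCX2 were called in all 4 of these fits, AGRN in 3 and HLA-C in 2. A further 8 of the 21 were called in 1 of them and 9 in none, and all 21 kept their direction throughout. DESeq2 called 3 genes, AGRN (adjusted p = 0.0039), COL1A1 (0.0104) and ARMCX2 (0.0259).

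**Figure D3:**
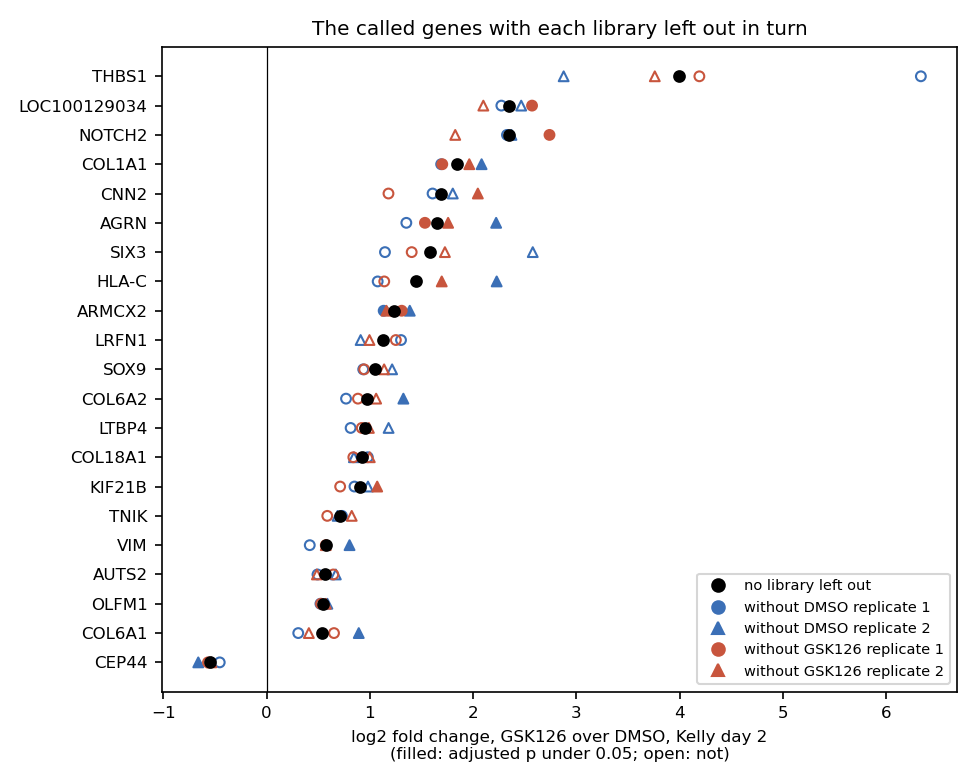
Log2 fold change of each of the 21 called genes at day 2 with all 4 libraries and with each library left out in turn (x axis, log2 scale, 1 row per gene). Filled points have an adjusted p under 0.05 in that fit and open points do not; no point crosses 0, and only COL1A1 and ARMCX2 are filled in every fit.

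The genes nearest the threshold show where the cut fell. SIX3 was the last called gene. Among the genes just beyond it, ULBP1, a ligand of the natural killer cell receptor NKG2D, had an adjusted p of 0.0699, the chemokine CXCL12 and the neuronal gene NAV1 each 0.0714. They read 1.80 and 2.47 against 12.2 and 9.57 CPM for ULBP1 and 3.59 and 5.56 against 18.98 and 12.8 CPM for CXCL12. With 2 libraries per arm, the median SE of a log2 fold change was 0.40 for the 3750 genes under a mean of 20 CPM, 0.20 for 5625 genes from 20 to 100 CPM and 0.12 for 2488 genes at 100 CPM or more.

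The inhibitor's target and its complex were not called. EZH2 RNA read 263 and 225 CPM with DMSO and 212 and 229.7 CPM with GSK126 (log2 fold change -0.13 ± 0.11, adjusted p = 0.828). Because GSK126 acts on the protein, this level checks no label. SUZ12 had a log2 fold change of -0.26 ± 0.12 (adjusted p = 0.608), EED 0.20 ± 0.25 (0.915) and EZH1, the alternative catalytic subunit, -0.02 ± 0.17 (0.995). None of the 13 tested PRC2 core and accessory subunits was called, 4 had positive estimates and the median was -0.07. PHF19, an accessory subunit that helps PRC2 reach chromatin, had the smallest p of them, at 71.9 and 74.8 CPM with DMSO and 56.3 and 52.3 CPM with GSK126 (adjusted p = 0.464). The 19 tested PRC1 subunits had a median of 0.10 and no call. None was called among 16 tested H3K27 demethylases and opposing modifiers. Only 0.177% of all tested genes were called, so the absence of calls in lists this small says little about their members.

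Genes reported as repressed by EZH2 in neuroblastoma were measured next. Of 6 tested, none was called, beside 0.177% of all tested genes. Positive estimates were found in 5, and the median was 0.29, or 0.20 without the first DMSO library. CASZ1, a zinc finger factor described as a growth suppressor in this tumour, read 70.1 and 95.8 CPM with DMSO and 107 and 92.5 CPM with GSK126 (adjusted p = 0.767). NGFR, the low-affinity neurotrophin receptor, read 1.80 and 5.56 against 4.90 and 8.93 CPM (adjusted p = 0.796). In both genes the groups overlapped. Without the first DMSO library the log2 fold change went from 0.23 to 0.05 for CASZ1 and from 0.76 to 0.30 for NGFR. CLU had a log2 fold change of -0.07 ± 0.17 (adjusted p = 0.97) and RUNX3 of 0.33 ± 0.36 (0.894). CDKN1A, the p21 inhibitor of cyclin-dependent kinases, had 0.26 ± 0.17 (0.773).

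Genes of MYCN, cell division and growth had no call at day 2, beside 0.177% of all tested genes. MYCN itself read 2744 and 2874 CPM with DMSO and 2568 and 2569.5 CPM with GSK126 (log2 fold change -0.13 ± 0.08, adjusted p = 0.741). The 44 tested genes of G1/S and DNA replication had a median of -0.14 with 5 positive estimates, and the 36 mitotic genes -0.11 with 5. In 22 of the 44 and 15 of the 36 both GSK126 libraries lay below both DMSO libraries, and in 0 and 2 above. Over all tested genes 2056 (17.3%) lay below and 2298 (19.4%) above. Without the first DMSO library these medians were -0.16 and -0.07. Among the mitotic genes FOXM1, a transcription factor of G2 and M phase, read 324 and 356 CPM with DMSO and 277 and 278 CPM with GSK126 (log2 fold change -0.30 ± 0.10, adjusted p = 0.269). PLK1, a mitotic kinase, had -0.34 ± 0.12 (0.354) and RRM2, a subunit of ribonucleotide reductase, -0.21 ± 0.09 (0.501). The 39 nucleolar and ribosome biogenesis targets of MYC had a median of -0.09, with 19 below and 5 above, beside 17.3% and 19.4% of all tested genes. The 50 cytosolic ribosomal proteins had a median of 0.04.

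The 28 tested genes of adrenergic identity had a median of -0.07 with 9 positive estimates. SIX3 was their 1 call, beside 0.177% of all tested genes, in the direction opposite to the median. In 10 members both treated libraries lay below both controls and in 2 above, beside 17.3% and 19.4% of all tested genes. Among the other lists without a call, 15 heat shock genes had a median of -0.09, 31 genes of sterol and fatty acid synthesis 0.11, 26 genes of glycolysis and hypoxia 0.003, and 31 genes of amino acid stress and the unfolded protein response -0.03. TGFBR1, the type I TGF-beta receptor, had the smallest p among BMP and TGF-beta targets and inhibitors, at 64.7 and 60.6 CPM with DMSO and 88.2 and 88.1 CPM with GSK126 (log2 fold change 0.50 ± 0.16, adjusted p = 0.263). PEG3, a paternally expressed imprinted gene, read 39.5 and 37.1 against 56.3 and 54.9 CPM (log2 fold change 0.54 ± 0.19, adjusted p = 0.379). In both the duplicates were close and the groups separate. Of 40 lists, 8 had a called member, 32 had none and 1, the epithelial markers, had no tested member. Of the 21 called genes 12 were on a list and 9 on none. The lists held 759 tested entries, with some genes on several lists, beside 11863 tested genes. They were chosen with earlier results of these data known, so this count is a description only.

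**Figure D4:**
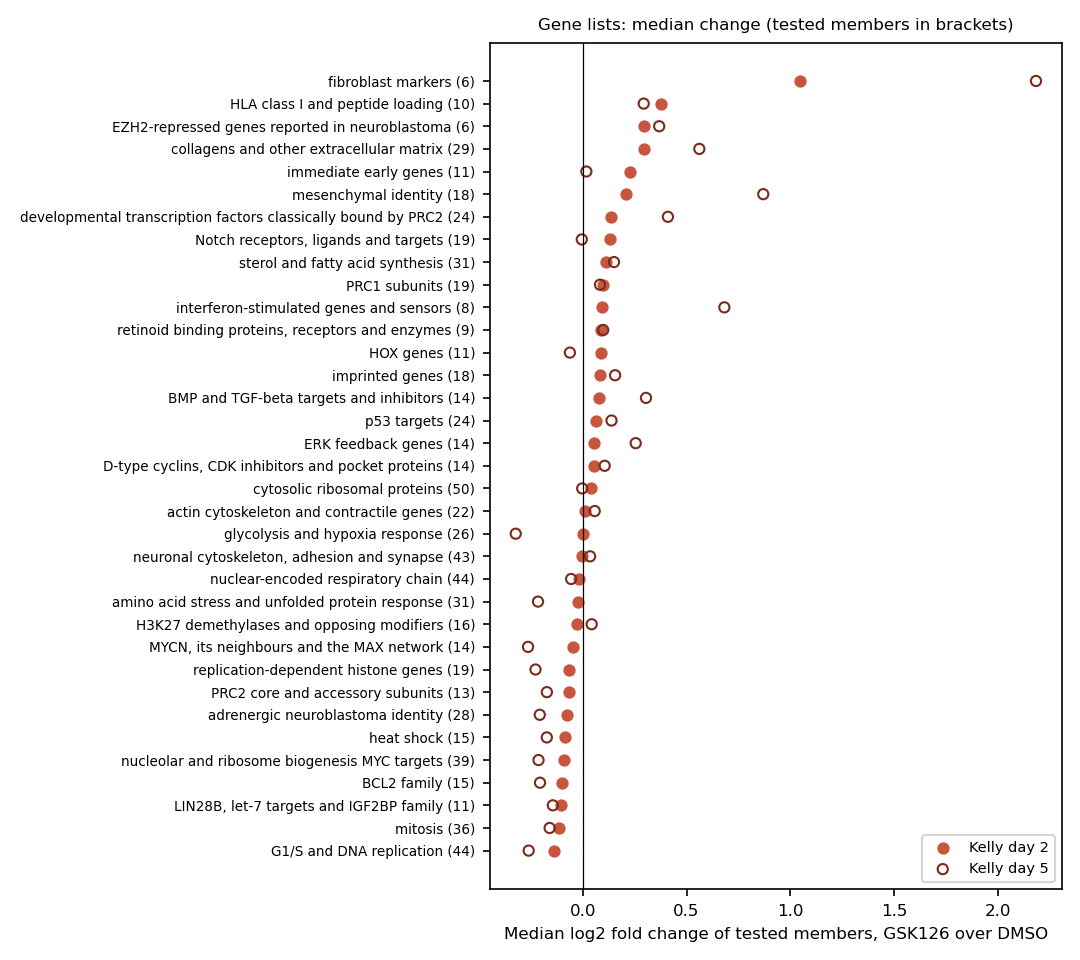
Median log2 fold change of GSK126 over DMSO for each gene list in Kelly at day 2 and at day 5 (x axis, log2 scale, 1 row per list with its number of tested genes). At day 2 most lists lie within 0.3 of 0. The fibroblast markers, at 1.05, lie farthest to the right among lists with at least 6 tested genes. That list holds COL1A1, and 6 of its 12 markers passed the filter, which keeps a gene that is high in any group.

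Some genes were read only in the treated libraries. Counting genes with 0 reads in both DMSO libraries and at least 3 in each GSK126 library gave 24, and the reverse gave 0. At a minimum of 2 the counts were 70 and 6. With the first DMSO library left out of the control group, a minimum of 3 gave 60 and 15. Here the forward count needed reads in both GSK126 libraries and the reverse only in the second DMSO library. These counts are therefore not mirror images and do not check the imbalance. The DMSO libraries together held 2741429 counts and the GSK126 libraries 3157749, so depth differed in the direction of the imbalance, and its part was not tested. YBX3, a cold shock protein that binds nucleic acids, had 8 and 4 reads with GSK126, at least 3.47-fold higher than a floor of 3 counts over the DMSO group (adjusted p = 0.0731). INSR, the insulin receptor, had 4 and 8 reads, also at least 3.47-fold higher (adjusted p = 0.0777). CECR2, a bromodomain protein of chromatin remodelling, had 8 and 4 reads at the same bound. Of the 24 genes, 6 passed the filter on low counts and none was called at day 2. At day 5 all 3 of these genes again had 0 reads in both DMSO libraries, with 30 and 31 reads of YBX3, 26 and 20 of INSR and 5 and 8 of CECR2 with GSK126. Most of the 24 genes did have reads in the day 5 DMSO libraries. SASH1 had 1 and 0 with DMSO and 22 and 18 with GSK126. TNFRSF1B had 5 and 6 with DMSO and 5 and 3 with GSK126, and SMKR1 5 and 2 against 1 and 1. All genes named here were picked after their values were seen.

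Kelly at day 5 used other libraries for both arms, so it gives a second measurement of the same genes. There 581 genes were called, 4.9% of those tested. Of the 20 genes higher at day 2, 13 were also called higher at day 5 (65%), 16 had a positive estimate and none was called lower. CEP44 was called lower at both times. Read the other way, 14 of the 581 day 5 calls (2.41%) were called at day 2. Of the 391 genes higher at day 5, 325 (83.1%) had a positive day 2 estimate, beside 6028 of all 11863 tested genes. The 391 genes had medians of 0.33 at day 2 and 1.10 at day 5. The 190 genes lower at day 5 had medians of -0.08 and -0.50.

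The called genes were also read singly at day 5. COL1A1 had a log2 fold change of 2.29 ± 0.19 at day 5, with 29.9 and 20.1 CPM in DMSO and 125 and 116 CPM in GSK126. NOTCH2 at day 5 read 1.49 and 0.608 CPM in DMSO and 50.004 and 57.3 CPM in GSK126 (log2 fold change 5.62 ± 0.43, adjusted p = 1.73e-21). ARMCX2, AGRN, HLA-C and VIM were also called at day 5, with log2 fold changes of 0.82, 1.87, 1.66 and 0.91. The 7 genes called higher at day 2 but not at day 5 were COL6A1, COL6A2, COL18A1, THBS1, OLFM1, LRFN1 and SIX3. COL6A2 at day 5 read 52.3 and 61.4 CPM with DMSO and 68.04 and 44.3 CPM with GSK126, so the day 5 controls were at the day 2 treated level. At day 5 SIX3 read 11.2 and 12.2 CPM with DMSO and 9.02 and 10.7 CPM with GSK126. LRFN1 read 21.7 and 29.2 CPM with DMSO and 22.1 and 22.9 CPM with GSK126, so neither was separated by treatment in the day 2 direction. In 15 of the 20 genes higher at day 2, both day 5 DMSO libraries were above both day 2 DMSO libraries, against 18.7% of tested genes. The low day 2 controls helped to choose these 20 genes, so that count is a description only.

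The difference in effect between days was tested for every gene. It passed for 45 genes, 0.379% of those tested, 24 with a higher and 21 with a lower log2 fold change at day 5. OLFM1 was the only one of the 21 day 2 calls among them, with a difference of -0.95 ± 0.18 (adjusted p = 7.61e-04). Its levels at day 5 were 208 and 147 CPM with DMSO and 143 and 124 CPM with GSK126, the reverse order of day 2. For the other 20 the difference did not pass the test, with wide errors in some, such as -1.01 ± 0.29 for COL6A2 (SE, adjusted p = 0.113) and 3.27 ± 1.07 for NOTCH2 (adjusted p = 0.244). Of the 45, 43 were called at day 5 and 44 had the larger absolute estimate there.

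**Figure D5:**
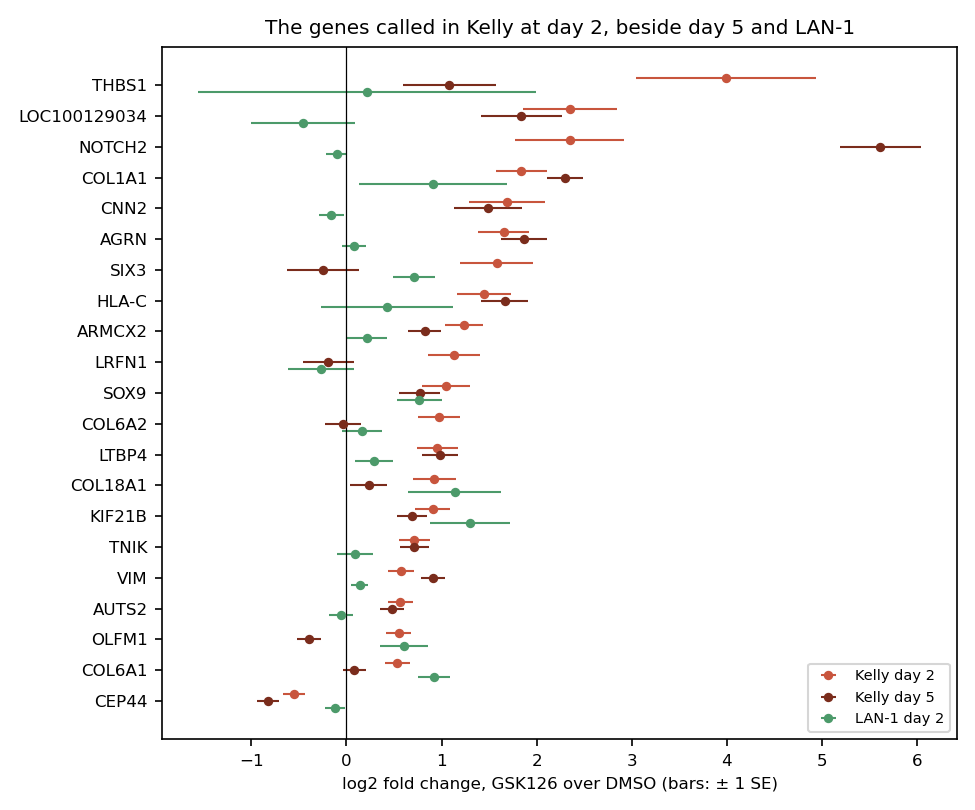
Log2 fold changes with SE of the 21 genes called in Kelly at day 2 (x axis, log2 scale, 1 row per gene), beside the same genes in Kelly at day 5 and LAN-1 at day 2. OLFM1 lies on opposite sides of 0 at day 2 and day 5 in Kelly, and AGRN lies near 0 in LAN-1.

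In LAN-1 at day 2 GSK126 gave 18 calls, 0.152% of tested genes, all higher, and 739 genes at an unadjusted p under 0.05. COL6A1 was the 1 gene called in both lines, 5% of the 20 higher Kelly calls and 5.56% of the LAN-1 calls. Its Kelly call was lost with the GC offset (adjusted p = 0.051), without the first DMSO library (0.756) and without the first or second GSK126 library (0.115 and 0.706). It read 52.5 and 51.6 CPM with DMSO and 111 and 86.6 CPM with GSK126 in LAN-1 (log2 fold change 0.92 ± 0.17, adjusted p = 9.09e-04). Of the 20 genes higher in Kelly, 15 had a positive estimate in LAN-1. In Kelly, 17 of the 18 LAN-1 calls had a positive estimate, beside 6028 of all 11863 tested genes. KIF21B, COL18A1 and SOX9 had LAN-1 log2 fold changes of 1.30 ± 0.42, 1.14 ± 0.48 and 0.77 ± 0.24 without passing the test. The effect of GSK126 differed between the lines for 1 gene, 0.00843% of those tested, at an adjusted p under 0.05, and for 619 at an unadjusted p under 0.05. This was AGRN, with 154 and 119.5 CPM in DMSO and 139.5 and 150.1 CPM in GSK126 in LAN-1. Its log2 fold change was 1.57 ± 0.31 higher in Kelly than in LAN-1 (adjusted p = 0.0118), and this call was lost without the first library of Kelly DMSO, Kelly GSK126, LAN-1 DMSO or LAN-1 GSK126, each left out alone.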

How the data were processed

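The deposited table holds raw read counts per gene symbol. The submitters' processing notes name FastQC, TopHat2, featureCounts and build GRCh37 (hg19). Their versions, the annotation, the strand setting and the handling of shared reads are not given in the sources used here, so overlapping and antisense genes cannot be separated. All 16 libraries in 8 groups of 2 were fitted with edgeR 4.0.16 (R 4.3.3): filterByExpr at a minimum count of 10 kept 11863 of 25728 rows, TMM scaling, robust quasi-likelihood test, 8 residual degrees of freedom, Benjamini-Hochberg adjustment over all tested genes, called under 0.05. Every adjusted p is from this fit unless another tool, a library left out, a GC offset or a replicate block is named. CPM is per TMM-scaled library total, except in the check of cell type markers, where it is per raw total. Intervals and floors cover counting error only.

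The gene lists, comparisons and tests were chosen with earlier results of these data known. Named genes were fixed genes, the 10 higher and lower calls with the largest changes, the 15 with the smallest adjusted p, up to 4 called or 2 uncalled members per list, and the 6 leading genes of each difference. Positions come from GENCODE 44 on GRCh37. Alternatives were DESeq2 1.42.0, other scaling, filters and samples, a replicate block, a GC offset and leaving out each library. The 28 symbols turned into dates are not named. Some single genes are left unreported.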

Additional observations from a re-analysis of the deposited data

Results flagged for a closer look

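The effect of GSK126 in Kelly differed between day 5 and day 2 for 45 genes (edgeR's quasi-likelihood test of the difference, adjusted p under 0.05). The 6 with the smallest adjusted p had day 2 log2 fold changes between -0.15 and 0.33, none of them called. DLK1, an imprinted membrane protein of the Notch ligand family, had 0.12 at day 2 and -1.02 at day 5, a difference of -1.14. DBH, the enzyme that makes noradrenaline, had -0.15 and -1.31, a difference of -1.17. IGF2, an imprinted growth factor, had 0.02 and -1.42, a difference of -1.44. RTL1, an imprinted gene of retrotransposon origin, had 0.09 and -1.22, a difference of -1.30. These 4 had lower estimates at day 5.

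PLXNA4, a semaphorin co-receptor of axons, had 0.33 at day 2 and 2.11 at day 5, a difference of 1.78. The kinase PLK2 had 0.04 and 1.504, a difference of 1.46. In both, the estimate was higher at day 5. Adjusted p-values for the 6 differences ran from 4.65e-13 for DLK1 to 2.05e-07 for RTL1.

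The effect of GSK126 at day 2 differed between Kelly and LAN-1 for 1 gene, AGRN, by 1.57 on the log2 scale (adjusted p = 0.0118).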

How the results depend on the processing

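Depth limits these results: of 3750 genes under a mean of 20 CPM, 5 were called, at a median SE of 0.40. Kelly at day 2 had 21 calls, and 2 to 11 when a library was left out, 3 by DESeq2 and 13 with only the groups compared. Another size factor, no filter, a stricter filter, the 8 Kelly libraries alone, a fit that was not robust and a newer quasi-likelihood setting, the last chosen after seeing the data, gave 15 to 22. At day 5 Kelly had 581 calls, 163 by DESeq2 and 236 to 331 without any 1 of its 4 libraries. LAN-1 at day 2 had 18, 2 by DESeq2, 38 with only the groups compared, 36 with a GC offset with or without the block, 3 to 5 without 1 of the DMSO libraries or the first GSK126 library and 14 without the second. The difference between days had 45, 15 by DESeq2, 72 with a GC offset and 22 to 41 without 1 library. It was 22 without the first day 5 DMSO library, 24 and 26 without the first and second day 2 GSK126 libraries, 26 without the second day 5 GSK126 library and 29 without the first day 2 DMSO library. The difference between lines had 1, 0 by DESeq2, 2 without a filter and 2 with only the groups compared, and 0 to 2 without 1 library. The cause was not tested.

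With a replicate block Kelly at day 2 had 22 calls, 20 higher and 2 lower, 19 of them among the 21. With the GC offset there were 25, 20 higher and 5 lower, and with both 29, 21 higher and 8 lower, 18 of the 21 kept in each. The 3 lost with the GC offset were COL6A1, COL18A1 and LRFN1. Same-numbered libraries did not deviate together (r = -0.0815 in Kelly at day 2). The GSK126 day 2 duplicates differed by only 1.10 times the counting variance, so this could not settle whether the numbers pair libraries. The labels do not say.

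No called gene changed sign. Among named uncalled genes, log2 fold changes crossed 0 when a library was left out for EZH1 (-0.11 to 0.093), EED (-0.022 to 0.38), CLU (-0.21 to 0.092), RUNX3 (-0.11 to 0.70), HIST2H2BE (-0.41 to 0.050), PMP22 (-0.15 to 0.42), KDR (-0.63 to 4.17), DBH (-0.32 to 0.063), IGF2 (-0.21 to 0.34), PLK2 (-0.044 to 0.13) and RTL1 (-0.12 to 0.40). IGF2 was also -0.054 with the GC offset and -0.0388 with the block added. FOXM1 passed the test with the GC offset (adjusted p = 0.0363) and with the block added (0.0385), and so did HIST2H2AC with both (0.0335).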
